A study of Mus musculus with 3 samples.

Results

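Receptor genes through which growth factors act on blood-forming cells, 10 in number, were followed in 3 RNA-seq libraries. They were *Kit*, *Flt3*, *Csf1r*, *Csf2ra*, *Csf2rb*, *Csf2rb2*, *Csf3r*, *Il3ra*, *Il6ra* and *Epor*, found by their symbols among 16742 genes listed in any library. Control and TR9 listed all 10 and TR1 listed 9. *Epor*, the gene not listed in TR1, was taken as 0 there. The control library held lineage-negative (lin-) marrow cells of wild type C57BL/6 mice, that is marrow depleted of cells with mature lineage markers. The TR1 and TR9 libraries held sorted GFP+ marrow cells of mice with TBLR1-RARα (TR) leukemia, also on C57BL/6, and the labels give an age of 6 to 8 weeks for every group. TR is a fusion of the retinoic acid receptor α found in rare acute promyelocytic leukemia (APL), and a retrovirus carried it together with GFP into lin- donor cells that had been cultured with IL-3, IL-6 and stem cell factor, which are ligands of receptors described here. TR1 and TR9 each go back to a single primary leukemic mouse, and the cells came from the third generation of transplanted mice. The labels name no treatment for any group. Each library pooled 3 mice, so there is 1 library per group and no difference below has a replicate check. Lineage depletion and GFP sorting cannot be told apart from the effect of the leukemia in any comparison with control.

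Growth factor receptors of the marrow fall into 2 families. KIT, FLT3 and CSF1R are class III receptor tyrosine kinases, which pair when the ligand binds and phosphorylate each other. The others are hematopoietin receptors, which have no kinase of their own and signal through bound JAK kinases to STAT factors. Of these, CSF3R and EPOR work as pairs of the same chain, whereas the GM-CSF, IL-3 and IL-5 receptors join a ligand-binding α chain to a shared β chain. The mouse has a pair of β chains, encoded by *Csf2rb* (βc) and *Csf2rb2* (βIL3, used for IL-3). IL6RA binds IL-6 and signals through gp130, encoded by *Il6st*. Stem and progenitor cells carry KIT, early multipotent and dendritic precursors FLT3, monocytes CSF1R, granulocytes CSF3R, and erythroid precursors EPOR.

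*Csf2rb* and *Csf2rb2* lie side by side on chromosome 15, at chr15:78325752-78353847 on the plus strand and chr15:78282507-78305721 on the minus strand (GRCm38, GENCODE M21). Their coding sequences of 2691 and 2637 bases were identical at 95.2% of 2631 aligned bases, with 126 mismatches. These sequences are shown because the values of both genes depend on telling their reads apart. The pair of stretches of 120 coding bases that differ most, from base 309 in *Csf2rb* and base 312 in *Csf2rb2*, holds 22 mismatches, which are in capitals.
Csf2rb: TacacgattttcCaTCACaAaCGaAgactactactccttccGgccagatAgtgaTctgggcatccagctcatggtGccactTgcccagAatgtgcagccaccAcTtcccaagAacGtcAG
Csf2rb2: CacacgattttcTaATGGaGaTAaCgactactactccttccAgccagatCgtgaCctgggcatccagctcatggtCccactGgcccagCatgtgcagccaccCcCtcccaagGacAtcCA
The stretch from coding base 2083 to 2202 is the same in both genes, so a read from it matches either.
Csf2rb and Csf2rb2: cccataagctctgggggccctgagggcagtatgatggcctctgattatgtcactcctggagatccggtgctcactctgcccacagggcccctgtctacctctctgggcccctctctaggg
Of all windows of 50 bases in the transcripts, 19.0% of those of *Csf2rb* and 19.5% of those of *Csf2rb2* also occur in a transcript of another gene, and 7.16% and 7.20% of windows of 100 bases do. RSEM divided such reads between the genes, and the expected counts of both were not whole in any library. *Kit*, *Flt3*, *Csf1r*, *Csf2ra*, *Il3ra* and *Epor* shared 0 windows of 50 bases with other genes. For *Csf3r* the share was 11.5% at 50 bases and 0.41% at 100 bases, and for *Il6ra* it was 4.83% and 3.36%.

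Promoters are shown for *Epor*, called lower in both leukemias, and for *Csf3r* and *Csf2ra*, the receptor genes called higher in both. The promoters of *Csf2rb* and *Csf1r* were not analysed here. Each promoter shown is the 250 bases before the gene's start, from RefSeq on GRCm38.p6 and in the direction of the gene. Capitals mark matches on either strand to 4 short motifs. AGATAA is read by GATA factors. CCACCC is the box bound by KLF1 in erythroid genes. GAGGAA is read by PU.1. GCAAT is the core letters of a C/EBP site. The *Epor* promoter is chr9:21963577-21963826 on the minus strand, *Csf3r* chr4:126024409-126024658 on the plus strand and *Csf2ra* chr19:61228419-61228668 on the minus strand.
Epor: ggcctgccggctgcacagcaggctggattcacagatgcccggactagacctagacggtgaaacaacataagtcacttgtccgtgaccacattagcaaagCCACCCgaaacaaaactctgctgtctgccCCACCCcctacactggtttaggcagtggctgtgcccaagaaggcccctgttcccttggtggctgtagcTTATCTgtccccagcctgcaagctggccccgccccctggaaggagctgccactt
Csf3r: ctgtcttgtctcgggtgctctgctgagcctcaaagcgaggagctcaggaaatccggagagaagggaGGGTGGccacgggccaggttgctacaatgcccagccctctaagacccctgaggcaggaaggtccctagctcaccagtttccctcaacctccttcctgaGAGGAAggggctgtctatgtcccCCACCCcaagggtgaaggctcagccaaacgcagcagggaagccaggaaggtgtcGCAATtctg
Csf2ra: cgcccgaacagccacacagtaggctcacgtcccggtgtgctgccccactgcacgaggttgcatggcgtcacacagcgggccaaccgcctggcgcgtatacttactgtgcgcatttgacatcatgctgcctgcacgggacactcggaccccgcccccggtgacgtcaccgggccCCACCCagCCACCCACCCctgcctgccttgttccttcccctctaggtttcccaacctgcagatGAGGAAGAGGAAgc
The *Epor* window holds AGATAA, on the other strand, starting 54 bases before the start, and CCACCC 151 and 122 bases before it. The *Csf3r* window holds GAGGAA 86 bases before the start, GCAAT 9 bases before it, and CCACCC 184 (on the other strand) and 63 bases before it. In *Csf2ra*, GAGGAA begins 14 and 8 bases before the start, and 3 CCACCC matches, the last 2 of which overlap, begin 77, 69 and 65 bases before it. Of 32851 promoter windows of this length, 9.99% hold AGATAA, 28.1% CCACCC, 23.3% GAGGAA and 23.1% GCAAT. Of the 8 receptor genes searched, AGATAA was found in 2 (*Epor* and *Il6ra*) and each of the other motifs in 5. A gene counted here where any of its promoter windows held the motif, whereas the shares above are of single windows. The counts of genes therefore cannot be set against those shares. A match of letters is not shown to be a bound site.

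Levels were compared in FPKM, the fragment count per unit of transcript length and of library size, which allows genes to be set side by side. Intervals below are 95% exact intervals that cover counting error only. In control, *Kit* was the highest of the 10 genes with 73.5 FPKM, followed by *Epor* with 31.6, and the rest lay between 6.01 (*Csf2rb2*) and 23.9 (*Csf2rb*). In TR1 the order opened with *Csf3r* at 175 FPKM, *Csf2rb* at 117 and *Csf2ra* at 77.4, with *Flt3* at 38.4 ahead of *Kit* at 29.1. In TR9 it opened with *Csf3r* at 96.9, *Kit* at 62.6 and *Csf2ra* at 58.9, and *Csf2rb* followed at 37.2. *Csf3r* was sixth among the receptors in control and the highest in both leukemias. It lay above 71.1% of the listed genes in control, 97.7% in TR1 and 95.5% in TR9. Some neighbors in these orders had separate counting intervals that overlapped. In control these were *Csf2rb* and *Csf1r*, *Csf1r* and *Csf2ra*, *Csf2ra* and *Csf3r*, *Csf3r* and *Flt3*, and *Il6ra* and *Il3ra*. The same held for *Il6ra* and *Il3ra* and for *Csf1r* and *Csf2rb2* in TR1, and for *Kit* and *Csf2ra* in TR9. Overlap of separate intervals does not show that the levels of a pair were equal.

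**Figure D1:**
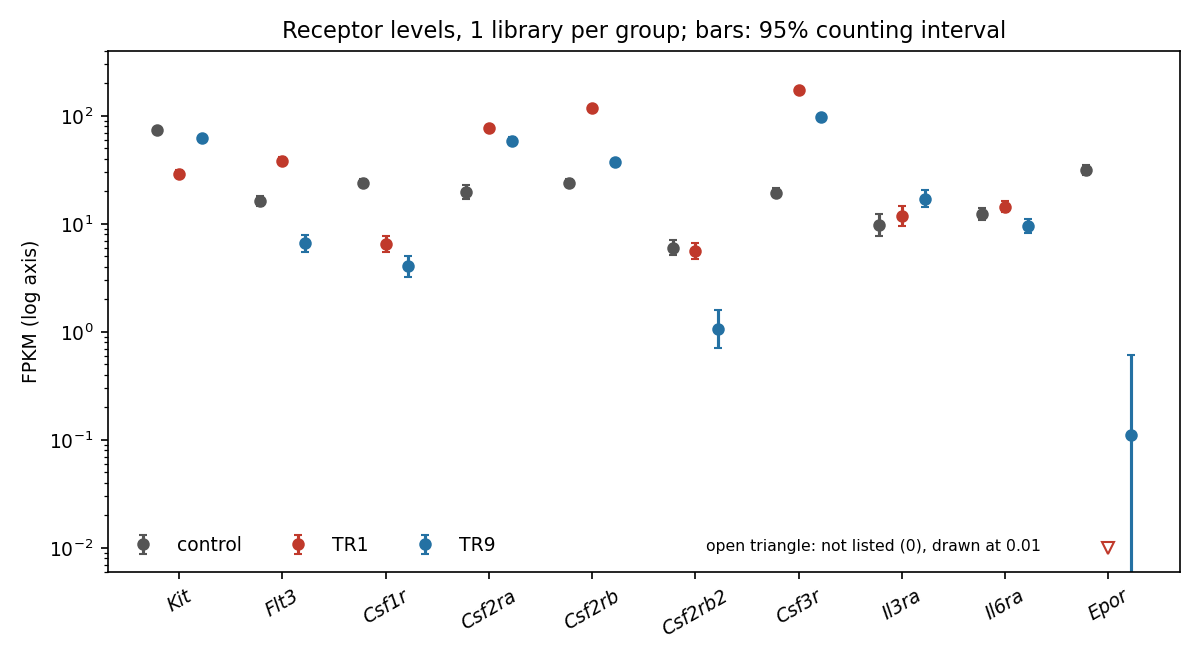
FPKM (log axis) of the 10 receptor genes in the control, TR1 and TR9 libraries, 1 library each, with bars for the 95% counting interval. *Csf3r* and *Csf2ra* lie higher in both leukemias than in control, *Flt3* lies on opposite sides of control, and *Epor* falls from 31.6 FPKM to 0 in TR1 (open triangle) and 0.11 in TR9.

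A gene was called where its FPKM differed at least 2-fold and an exact Poisson test of its expected counts passed a false discovery rate of 0.001, adjusted over all genes listed in either library. The form of this rule is that of the study's methods. Such a call compares the reads of 2 libraries, not the conditions. Of the 10 receptors, 4 were called higher in TR1 than in control, where 8.09% of 16282 genes were, and 3 were called lower, where 13.02% of genes were. In TR9, 2 were called higher against 9.37% of 16303 genes, and 4 were called lower against 10.8%. The 10 genes had median log2 ratios of 0.24 (TR1) and -0.30 (TR9), beside -0.29 and -0.12 over all genes. *Csf2ra* and *Csf3r* were called higher and *Csf1r* and *Epor* lower in both leukemias, which share the control library. These are 2 of 10 in each direction, where 5.67% of all 16742 genes were called higher in both and 8.39% lower in both. *Flt3* was called in opposite directions, *Kit* and *Csf2rb* were called in TR1 alone, *Csf2rb2* in TR9 alone, and *Il3ra* and *Il6ra* in neither. With edgeR's TMM scaling, which sets the bulk of genes level between libraries, log2 ratios shifted upwards by 0.25 in TR1 and 0.11 in TR9, and the same receptor genes were called in each direction. Over all genes, 38.3% of those called in TR1 were higher as deposited and 51.6% under TMM scaling. An assumed coefficient of variation of 0.2 between libraries was then added (the exact test of edgeR). With it, *Kit* and *Flt3* in TR1 and *Flt3* and *Csf2ra* in TR9 were no longer called.

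**Figure D2:**
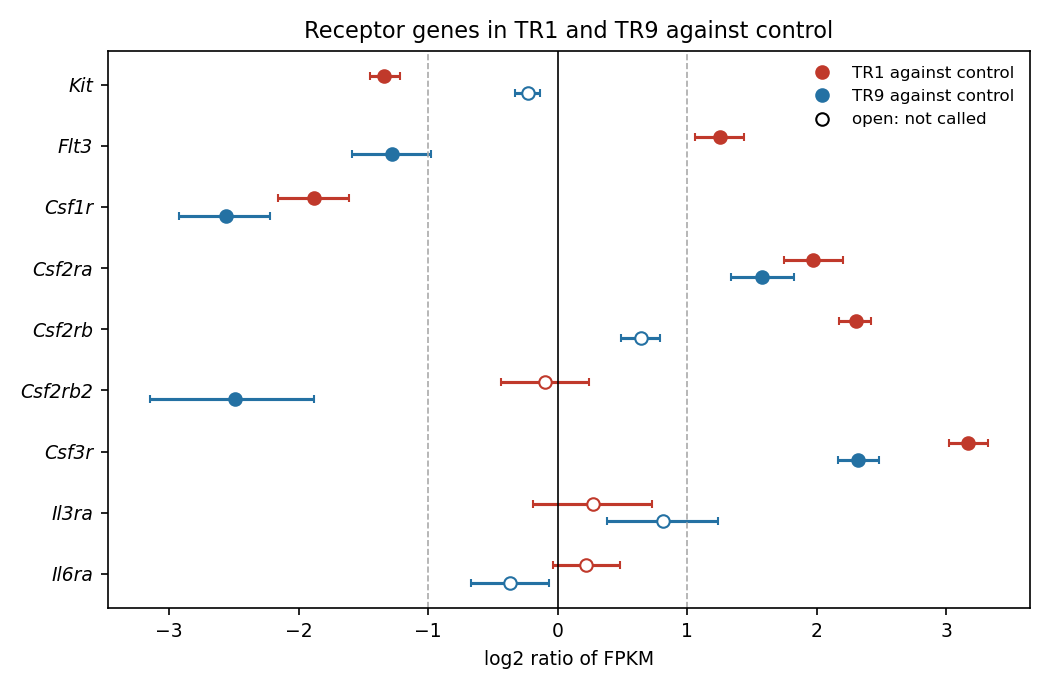
Log2 ratio of FPKM of TR1 (red) and TR9 (blue) against the same control library for 9 receptor genes, with 95% counting intervals, dashed lines at -1 and 1, and open points for genes that were not called. *Csf3r* and *Csf2ra* lie to the right of 1 and *Csf1r* to the left of -1 in both, and *Flt3* lies at 1.25 in TR1 and at -1.28 in TR9. *Epor* is left out because it was at 0 in TR1.

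*Csf3r* encodes the receptor of G-CSF, the main growth factor of neutrophils. Control gave 401 expected counts for it, TR1 3745 and TR9 1931, or 19.4, 175 and 96.9 FPKM. Both leukemia libraries were far above control, and TR1 was the higher of them. Against control the log2 ratio was 3.17 for TR1 (95% interval 3.02 to 3.32), a 9.0-fold higher FPKM, and 2.32 for TR9 (2.16 to 2.48), a 4.99-fold higher FPKM. *Csf3r* has 3 transcripts in the files, and the length that RSEM gives as their weighted average was 3736 bases in control, 3814 in TR1 and 3855 in TR9. Its longest-to-shortest ratio of 1.032 lies above the median of 1.008 over 3177 genes with several transcripts, so the estimated mix of *Csf3r* transcripts differed between libraries. Of 5 promyelocyte markers, 5 were called higher in TR1 and 4 in TR9, and of 10 markers of later neutrophil stages 10 were called higher in TR1 and 7 in TR9. In TR9, *Mpo*, *Mmp9*, *Cxcr2* and *Retnlg* were not called, at 0.64, 0.87, -0.45 and -0.03 on the log2 scale, and are named here after their values were seen. The summed level of the promyelocyte markers was 4251 FPKM (control), 21278 (TR1) and 23701 (TR9), higher in TR9 than in TR1, unlike *Csf3r*, and that of the later neutrophil markers was 104.5, 23192 and 8957. *Elane* and *S100a9* reached the highest level in any library, 13178 FPKM in TR9 and 12864 FPKM in TR1. None of the 15 markers was at 0 in a library, and their part in the *Csf3r* difference was not tested. In libraries of mixed cells, as here and in every result below, fewer cells of a type and less RNA per cell cannot be told apart.

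*Csf2ra*, the α chain that binds GM-CSF, had 199.8, 798 and 558 expected counts in control, TR1 and TR9, and 19.7, 77.4 and 58.9 FPKM. Both leukemias were above control, by a log2 difference of 1.97 in TR1 (1.75 to 2.20) and 1.58 in TR9 (1.34 to 1.82). Its counts were not whole in any library, although no window of 50 bases of its GENCODE M21 transcripts was found in another gene.

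*Csf2rb*, the β chain that GM-CSF, IL-3 and IL-5 receptors share, had 631.5 (control), 3156 (TR1) and 919.7 (TR9) expected counts, and 23.9, 117 and 37.2 FPKM. TR1 stood apart, with a log2 ratio of 2.30 (2.17 to 2.42) against control. TR9 lay between, at 0.64 (0.49 to 0.79), above control by more than counting error but under the 2-fold threshold. *Csf2rb2*, the β chain of IL-3, went another way, with 154, 146 and 25.5 counts and 6.01, 5.61 and 1.07 FPKM. Control and TR1 did not differ beyond counting error, with a log2 ratio of -0.10 (-0.44 to 0.24), and TR9 was 5.62-fold lower than control, with a log2 ratio of -2.49 (-3.15 to -1.88). In TR1 the sign for *Csf2rb2* turned to 0.15 under TMM scaling. *Csf2rb* had 3.97 times the FPKM of *Csf2rb2* in control (3.32 to 4.77), 20.9 times in TR1 (17.7 to 24.9) and 34.7 times in TR9 (23.1 to 52.5). Because the genes share reads, the division between them is less certain than their sum, which was 29.9 FPKM in control, 123 in TR1 and 38.2 in TR9. As a single gene the pair was higher in TR1 by a log2 ratio of 2.04, which was called, and in TR9 by 0.36, which was not.

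*Il3ra*, the α chain that binds IL-3, was not called in either leukemia. It had 74, 91 and 121 expected counts and 9.77, 11.8 and 17.1 FPKM in control, TR1 and TR9. Against control the log2 ratio was 0.27 for TR1 (-0.19 to 0.73) and 0.81 for TR9 (0.38 to 1.24), where the interval reaches past 2-fold. The FPKM of *Il3ra* was 0.41 times that of *Csf2rb* in control (0.32 to 0.52), 0.10 times in TR1 (0.081 to 0.12) and 0.46 times in TR9 (0.38 to 0.56). The α chain of the GM-CSF receptor stood at 0.83 times *Csf2rb* in control, 0.66 in TR1 and 1.59 in TR9.

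*Il6ra* was not called either, with 229, 271 and 166 expected counts and 12.4, 14.4 and 9.61 FPKM. The log2 ratio in TR1 was 0.22 (-0.04 to 0.48), whose interval includes 0, and that in TR9 was -0.37 (-0.67 to -0.07). *Il6st*, whose product gp130 carries the signal of IL-6, was chosen after its values were seen. It had 526, 114 and 114 counts and was called lower in both, with log2 ratios of -2.23 (-2.54 to -1.94) and -2.11 (-2.42 to -1.82). The FPKM of *Il6st* was 1.40 times that of *Il6ra* in control (1.20 to 1.65), 0.26 times in TR1 (0.20 to 0.32) and 0.42 times in TR9 (0.33 to 0.54).

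**Figure D3:**
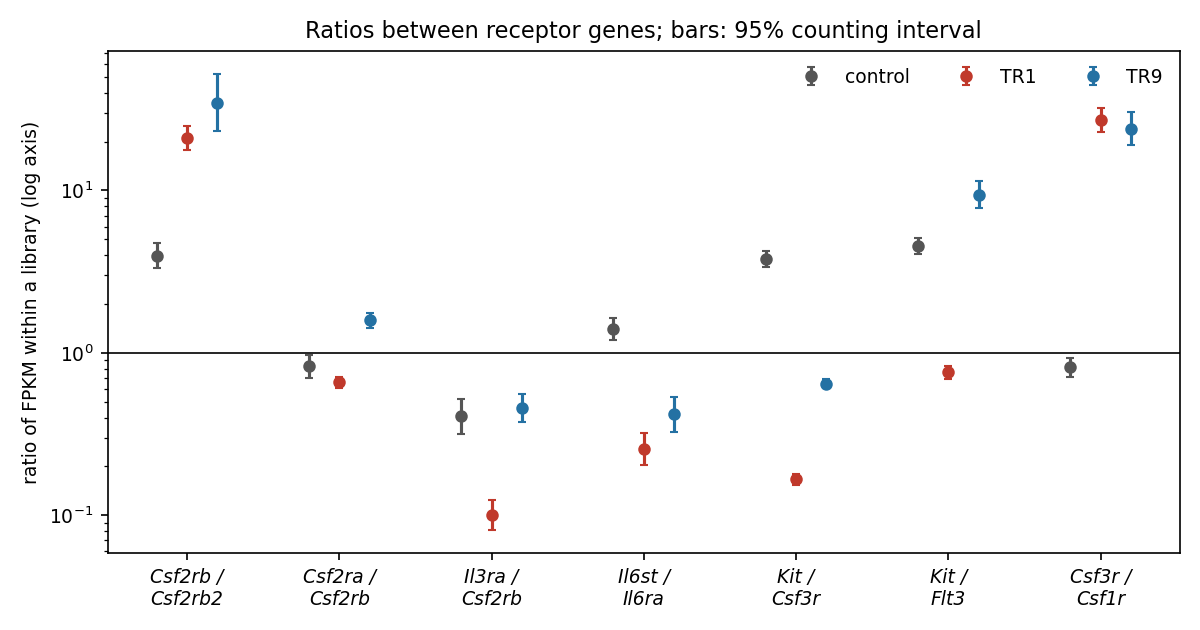
Ratios of FPKM (log axis) between pairs of receptor genes within each library, with 95% counting intervals and a line at equal levels. *Kit* exceeds *Csf3r* in control, where the ratio is 3.79, and lies under it at 0.17 in TR1 and 0.65 in TR9, and *Csf2rb* exceeds *Csf2rb2* more in both leukemias than in control.

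*Kit* encodes the receptor of stem cell factor and lies at chr5:75574916-75656722 on the plus strand (GRCm38, GENCODE M21). Its expected counts were 2115 (control), 853 (TR1) and 1684 (TR9), with 73.5, 29.1 and 62.6 FPKM. TR1 was the low library, with a log2 ratio of -1.34 against control (-1.45 to -1.22), whereas TR9 was at -0.23 (-0.33 to -0.14), below control by more than counting error and far from the threshold. *Kit* has 2 transcripts in the files, whose coding sequences differ by a segment of 12 bases at chr5:75639147-75639158 (2940 against 2928 coding bases). The segment encodes the 4 amino acids that distinguish the long form of KIT, and it is shown in capitals between its flanking coding bases because it sets the forms of the protein apart.
Kit: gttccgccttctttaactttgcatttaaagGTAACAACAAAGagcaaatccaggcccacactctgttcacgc
The average length that RSEM gives for *Kit* was 5194.2 bases (control), 5192.1 (TR1) and 5192.5 (TR9). The transcripts also differ outside the coding sequence, with lengths in GENCODE M21 of 5214 bases with the segment and 5241 without it. The share of each form cannot be read from these lengths without the length of each transcript in the annotation used by the authors. *Kitl*, the gene of stem cell factor, had 17, 13 and 118 counts and was called higher in TR9 than in control, with a log2 ratio of 2.90 (2.16 to 3.72), and not called in TR1, at -0.42 (-1.58 to 0.71). Mast cells and stem cells also express *Kit*. A list of 7 markers covers mast cells together with basophils and eosinophils, so its sum does not give mast cells alone. The summed level was 1612 FPKM in control, 75.2 in TR1 and 87.9 in TR9, with *Prg2* the highest in any library and *Fcer1a* at 0 in TR1. That of 8 stem and multipotent progenitor markers was 121, 33.2 and 94.2 FPKM, with *Slamf1* and *Hoxa9* at 0 in both leukemias, *Mecom* in TR1 and *Procr* in TR9. Of these 8, 1 was called higher and 4 lower in both leukemias. *Cd34* gave 75.8 FPKM of the sum in control, 5.80 in TR1 and 4.34 in TR9, whereas *Ly6a* gave 9.49, 26.9 and 87.6. The part of either marker list in the values of *Kit* was not tested.

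*Flt3*, the receptor of FLT3 ligand, had 327 (control), 792 (TR1) and 126 (TR9) expected counts, and 16.2, 38.4 and 6.65 FPKM. The libraries therefore stood in the order TR1, control, TR9. Against control the log2 ratio was 1.25 for TR1 (1.06 to 1.44) and -1.28 for TR9 (-1.59 to -0.98), called in both. Of all 16742 genes, 19 (0.113%) were called in opposite directions in the 2 leukemias, and *Flt3* is 1 of them. The FPKM of *Kit* was 4.55 times that of *Flt3* in control (4.05 to 5.13), 0.76 times in TR1 (0.69 to 0.84) and 9.41 times in TR9 (7.85 to 11.4). *Flt3l*, the gene of its ligand, had 43, 13 and 16 counts, called lower in TR1 as deposited but not under TMM scaling, and not called in TR9. Dendritic and early B cells also express *Flt3*. Dendritic cell markers summed to 33.0 FPKM in control, 2.0 in TR1 and 3.7 in TR9 over 7 genes, with *Zbtb46* and *Cd209a* at 0 in both leukemias and *Siglech* at 0 in TR1. Of 6 listed B lineage markers, *Cd79a* and *Cd79b* were among those at 0 in both leukemias and *Ebf1* in TR1, and the list summed to 12.4, 16.7 and 199.8 FPKM, of which *Igll1* gave 195 in TR9. Of the 7 dendritic markers, 4 were called lower in both leukemias (3 under TMM scaling) and 0 higher, and the others were not called in both. *Cd74*, the highest of them in control at 17.1 FPKM, stood at 0.44 FPKM in TR1. *Igll1* stood at 13.3 FPKM in TR1, called higher than in control, where it had 0.43 FPKM. Their part in the values of *Flt3* was not tested.

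*Csf1r*, the receptor of M-CSF that marks monocytes and macrophages, had 510 (control), 141 (TR1) and 81 (TR9) expected counts, and 23.8, 6.47 and 4.04 FPKM. It was called lower in both, with log2 ratios of -1.88 (-2.16 to -1.61) and -2.56 (-2.92 to -2.22). *Csf3r* stood at 0.81 times the FPKM of *Csf1r* in control (0.71 to 0.93), and at 27.0 times in TR1 (22.8 to 32.2) and 24.0 times in TR9 (19.2 to 30.3). Monocyte and macrophage markers were divided. Of 12, 5 were called higher and 6 lower in TR1, and 3 higher and 6 lower in TR9. Macrophage genes were divided too. *C1qa* had 104, 4 and 2 counts and was called lower in both, whereas *Cd68* had 117, 879 and 298 and was called higher in both. *Ly6c2* had 2339, 26648 and 27577 counts and made up most of the summed level of 793 FPKM in control, 6342 in TR1 and 6729 in TR9. None of the 12 was at 0, and their part in the *Csf1r* difference was not tested. *Csf1*, the gene of M-CSF, had 196, 243 and 34 counts and was called lower in TR9 alone, at -2.23.

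*Epor*, the erythropoietin receptor, had 316 (control), 0 (TR1) and 1 (TR9) expected counts, and 31.6, 0 and 0.11 FPKM. Taking 3 counts as the limit that a count of 0 allows in a library, TR1 lay at least 107-fold below control. TR9 lay 287-fold below, with a log2 ratio of -8.17 (-13.47 to -5.68). Erythroid markers fell with it. All 14 listed erythroid markers were called lower in both leukemias, and their sum was 3196 FPKM in control, 9.7 in TR1 and 17.9 in TR9. *Alas2* was among those at 0 in both leukemias and *Hbb-bs* and *Slc4a1* among those at 0 in TR1, and *Car1* had the highest level of the list in any library. All 9 megakaryocyte markers were called lower in both, and their sum was 1027, 4.1 and 3.2 FPKM, with *Pf4* and *Gp6* at 0 in both leukemias, *Ppbp*, with the highest level of the list in any library, among those at 0 in TR1, and *Gp9* at 0 in TR9.

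Summed by family, the 3 tyrosine kinase receptors held 113 FPKM (control), 74.0 (TR1) and 73.2 (TR9). The β chains held 29.9, 123 and 38.2, the 3 α chains 41.9, 104 and 85.6, and the single-chain receptors *Csf3r* and *Epor* 51.0, 175 and 97.0. All 10 genes together held 236 FPKM in control, 475 in TR1 and 294 in TR9.

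TR9 and TR1 were also compared directly. Of the 10 receptors, 1 was called higher in TR9, where 4.34% of 15706 genes were, and 3 were called lower, where 2.31% of genes were. *Flt3* was 5.78-fold lower in TR9, with a log2 ratio of -2.53 (-2.81 to -2.26). *Csf2rb2* and *Csf2rb* were lower by log2 ratios of -2.39 (-3.05 to -1.78) and -1.66 (-1.77 to -1.55), and their sum by -1.68. *Kit* was 2.15-fold higher in TR9, with a log2 ratio of 1.10 (0.98 to 1.22), which was 0.97 and not called under TMM scaling. With the assumed variation, *Kit* and *Csf2rb* were not called between the lines. The other receptors stayed under the 2-fold threshold, from *Csf3r* at -0.85 (-0.93 to -0.77) to *Il3ra* at 0.53 (0.13 to 0.94), and *Epor* had 1 count in TR9 and 0 in TR1, which gives no ratio. The later neutrophil markers moved between the lines as well, with 6 of 10 called lower and 2 higher in TR9, and their part in these values was not tested.

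**Figure D4:**
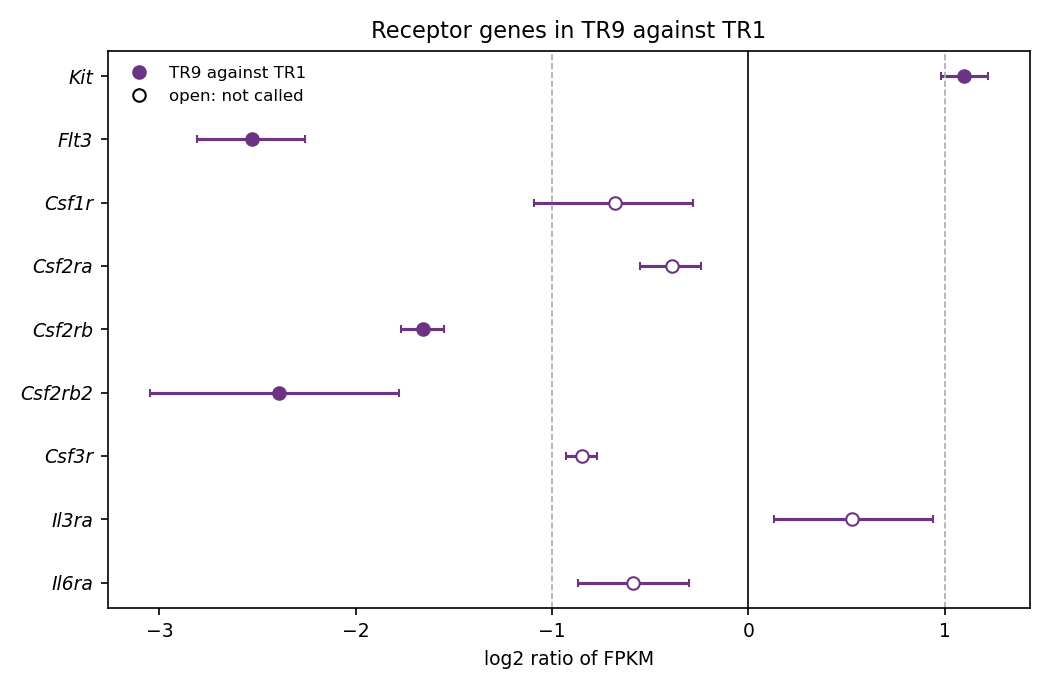
Log2 ratio of FPKM of TR9 against TR1 for 9 receptor genes, with 95% counting intervals, dashed lines at -1 and 1, and open points for genes that were not called. *Flt3*, *Csf2rb2* and *Csf2rb* lie between -2.53 and -1.66, and *Kit* at 1.10 is the gene called higher in TR9.

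Ligand genes of these receptors were low in all 3 libraries. Of 11 genes of ligands, 7 were listed in any library, and *Csf2*, *Il3*, *Epo* and *Thpo* were not. *Il34*, a further ligand of CSF1R, had 15 counts in TR9 and 0 elsewhere, which puts TR9 at least 5.35-fold above control. The highest level of a ligand gene in any library was that of *Csf1*, 10.3 FPKM in TR1. No ligand gene was called in the same direction in both leukemias.

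Among 23 other listed receptors of the same families, 4 were called higher and 5 lower in both leukemias, beside 5.67% and 8.39% of all genes. In TR1, 7 were called higher and 6 lower with a median log2 ratio of -0.03, and in TR9 5 were called higher and 6 lower with a median of -0.64. Genes called in the same direction in both included *Il13ra1*, a chain of the IL-13 receptor, and *Ghr*, the growth hormone receptor. *Il13ra1* had 25, 437 and 136 counts in control, TR1 and TR9, with log2 ratios of 4.10 (3.52 to 4.74) and 2.54 (1.91 to 3.21). *Ghr* had 7, 30 and 222 counts with log2 ratios of 1.55 (0.33 to 2.98) in TR1, 4.63 (3.56 to 5.96) in TR9 and 3.08 (2.52 to 3.68) between them. *Pdgfrb*, a class III receptor tyrosine kinase like *Kit*, had 146, 273 and 950 counts and was called higher in TR9 than in control, at 2.80 (2.54 to 3.06), and than in TR1, at 1.92 (1.73 to 2.12). Against control its ratio in TR1 was 0.88 (0.58 to 1.18), which under TMM scaling was 1.13 and called, so that 5 of these receptors were higher in both. *Pdgfrb* also marks stromal cells, and the 5 stroma markers summed to 515 FPKM in control, 3.7 in TR1 and 8.1 in TR9, with *Col1a1* the highest in any library and *Lum* at 0 in both leukemias. Between the lines, 1 of the 4 stroma markers compared was called higher in TR9 and 0 lower. This was *Col1a2*, with a log2 ratio of 2.69 (2.08 to 3.35). The part of stroma markers in the values of *Pdgfrb* was not tested. *Il2rg*, the shared γ chain of another receptor group and the gene of this list with the highest level in any library, had 252, 784 and 611 counts.

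Of 27 genes whose proteins bind the receptor tails or act just after them, 3 were called higher and 2 lower in both leukemias, beside 5.67% and 8.39% of all genes. Under TMM scaling 4 were higher and 1 lower, beside 6.96% and 6.86%. *Socs3*, the feedback inhibitor that binds CSF3R and gp130, had 7, 76 and 97 counts, with log2 ratios of 3.43 (2.32 to 4.79) in TR1 and 3.90 (2.80 to 5.25) in TR9. *Stat3*, the factor activated by G-CSF and IL-6, had 541, 1512 and 1151 counts, with log2 ratios of 1.46 (1.32 to 1.61) and 1.19 (1.04 to 1.34). *Stat5a*, activated by erythropoietin, thrombopoietin, IL-3 and GM-CSF, had 862, 275 and 318 counts, with log2 ratios of -1.68 (-1.88 to -1.48) and -1.35 (-1.54 to -1.16). The counts of *Stat5a* and of its neighbor and paralog *Stat5b* were not whole, so RSEM divided reads for both. *Jak2*, the kinase bound by EPOR and the shared β chains and named after its values were seen, was called lower in both, at -1.05 (-1.19 to -0.91) and -1.10 (-1.25 to -0.96), and in neither under TMM scaling. Between the lines, *Cish*, a STAT5 target and feedback inhibitor, was higher in TR9 by a log2 ratio of 3.74 (2.55 to 5.23) on 6 counts in TR1 and 74 in TR9. The 27 genes had median log2 ratios of 0.09 (TR1) and 0.24 (TR9).

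Of 14 transcription factors known to act on receptor genes, 3 were called higher and 7 lower in both leukemias, beside 5.67% and 8.39% of all genes, and the same counts stood under TMM scaling. Those lower included the erythroid factors *Gata1* and *Klf1*, which act on *Epor*, and *Hoxa9*, which acts on *Flt3*. *Gata1* had 999, 5 and 6 counts, with log2 ratios of -7.67 (-9.30 to -6.45) and -7.27 (-8.72 to -6.15), and *Klf1* had 918, 3 and 5, with log2 ratios of -8.29 (-10.57 to -6.74) and -7.42 (-9.05 to -6.20). *Hoxa9* had 144 counts in control and 0 in both leukemias, which puts TR1 at least 48.7-fold and TR9 at least 44.9-fold below it. Those higher in both were *Cebpa*, *Cebpb* and *Cebpe*, named because they are the whole of that count, and C/EBP factors act on *Csf3r*. *Cebpe* had the largest ratios of these, 2.74 (2.38 to 3.12) and 3.10 (2.75 to 3.48), on 71, 482 and 571 counts. *Spi1*, which encodes PU.1 and acts on *Csf1r*, *Csf2ra* and *Csf3r*, had 434, 733 and 1690 counts and was called higher in TR9 alone, at 2.06 (1.90 to 2.21), and in TR9 over TR1, at 1.33 (1.20 to 1.45). *Irf8*, a factor of monocyte and dendritic cell fate, had 1059, 39 and 644 counts, with a log2 ratio of -4.79 (-5.29 to -4.33) in TR1 against control and 4.17 (3.70 to 4.67) in TR9 against TR1.

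**Figure D5:**
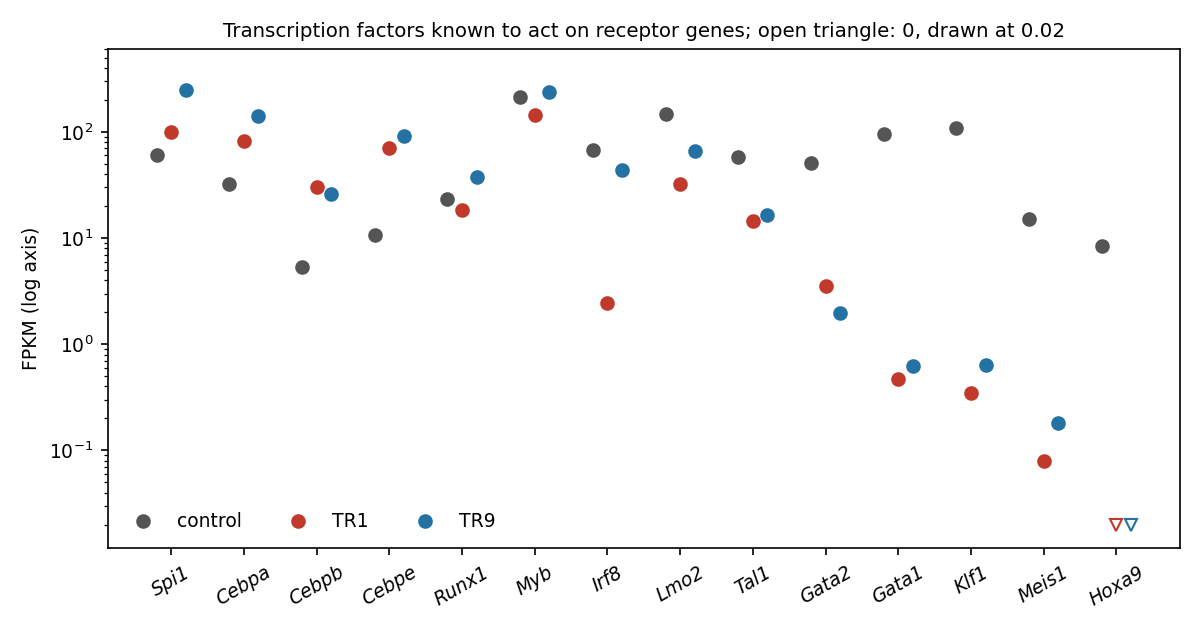
FPKM (log axis) of 14 transcription factors known to act on receptor genes in the control, TR1 and TR9 libraries, 1 library each. *Cebpa*, *Cebpb* and *Cebpe* lie above control in both leukemias, *Gata1* and *Klf1* fall below 1 FPKM from 96.0 and 110 in control, *Irf8* is low in TR1 alone, and *Hoxa9* is at 0 in both (open triangles).

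Depth was alike in the 3 libraries, with expected counts summing to 5488778, 5571409 and 5129662 in control, TR1 and TR9. The limit that a count of 0 allows is taken as 3 counts. T cell markers were near 0 in all libraries, with 7 genes summing to between 3.0 and 5.0 FPKM. *Cd3d* reached the highest level in any library, 1.66 FPKM in TR9. *Cd5* was at 0 in control, *Cd3e*, *Cd4* and *Cd5* in TR1, and *Cd3g* in TR9.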

How the data were processed

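RNA-seq was read from 3 libraries, 1 per group (control, TR1, TR9), each a pool of 3 mice. Per the study's methods, reads were cleaned, aligned by BWA and Bowtie, and summed over genes by RSEM, with mm9 as the genome build in the submitters' processing notes (versions are not given in the sources used here). The authors deposited for each gene an expected count, not normalized and not always whole, and the FPKM, scaled by RSEM for length and library total, with the RSEM length of each gene. RSEM fits reads that match several genes to each in part, so paralogs with shared sequence have less certain values.

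Gene IDs were matched to symbols through RefSeq (GRCm38.p6), 16698 of 16742. Coordinates and transcripts came from GENCODE M21 (GRCm38) and promoters from RefSeq, and none was read with mm9. For each pair of libraries, rounded expected counts entered an exact binomial form of the Poisson test (scipy 1.17.1), adjusted by Benjamini-Hochberg over the genes listed in either. A call needed a rate of false discoveries up to 0.001 and a log2 FPKM ratio of 1 or more in size, with FPKM under 0.01 set to 0.01. With 1 library per group no spread between mice could be estimated, and no p-value is given. Intervals are 95% Clopper-Pearson (log2 ratios) or exact Poisson (levels), and cover counting error only, since reads without molecular identifiers are not independent molecules. Counts within 0.005 of a whole number were taken as whole.

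All 10 receptors are named. From the lists of ligands, other receptors, signaling genes and regulators, up to 3 genes called in the same direction in both leukemias and up to 2 called between the lines were named, those with the largest log2 ratios and at least 1 FPKM in a library, and from the marker lists the genes at 0 and the gene with the highest FPKM in any library. Some genes that this rule names are not reported here. *Flt3l*, *Csf1*, *Il6st*, *Jak2*, *Cebpa*, *Cebpb*, *Cebpe*, *C1qa*, *Cd68*, *Cd34*, *Col1a2*, *Mpo*, *Mmp9*, *Cxcr2*, *Retnlg*, *Il2rg* and *Stat5b* were named after their values were seen. The members and lists were chosen with earlier results of these data known. Alternatives were TMM scaling (edgeR 4.0.16, R 4.3.3), TPM scaling, the median of ratios, a pseudocount of 1 FPKM, a minimum of 10 counts, the fold alone, a looser limit of 0.05 on false discoveries, a log2 ratio of 2 in size, edgeR's exact test with an assumed coefficient of variation of 0.2, and the β chain genes summed. TMM scaling of the lists and of all genes was chosen after seeing the data. The call rule and the intervals of log2 ratios were also run on simulated counts that held counting error only. Python 3.11.15, numpy 2.4.6, pandas 2.3.3, biopython 1.88 and matplotlib 3.10.9 were used.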

Additional observations from a re-analysis of the deposited data

Results flagged for a closer look

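For *Flt3*, the receptor of FLT3 ligand, the 2 leukemias moved to opposite sides of control, TR1 at a log2 ratio of 1.25 and TR9 at -1.28. *Il6ra* also had opposite signs, 0.22 in TR1 and -0.37 in TR9, but neither was called, and the interval in TR1 includes 0. With 1 library per group, the difference between the leukemias was not tested over replicates for either gene.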

How the results depend on the processing

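The calls of receptors against control were the same genes under TMM scaling, TPM scaling, the median of ratios, a pseudocount of 1 FPKM, a minimum of 10 counts, the fold alone and a false discovery rate of 0.05. Where a log2 ratio of 2 in size was required, the receptors called higher in TR1 numbered 2 and lower 1. In TR9, 1 was then higher and 3 were lower. *Flt3* was called in neither leukemia at this limit. Under the exact test of edgeR, 1 was called higher in TR9, *Csf3r*, and *Kit* and *Flt3* were not called in TR1, nor *Flt3* and *Csf2ra* in TR9. Between TR9 and TR1, the count called higher, *Kit* alone, was 0 with TMM scaling, 0 with the median of ratios, 0 with a log2 ratio of 2 in size, 0 with the exact test of edgeR, and 2 by the fold alone, where *Epor* joined on 1 count. The ratio of *Kit* was then 0.97 under both scalings. Signs turned for values that were not called, *Csf2rb2* in TR1 to 0.15 with TMM scaling and 0.13 with the median of ratios, and *Il6ra* in TR1 to -0.01 with TPM scaling. As a sum with *Csf2rb*, *Csf2rb2* in TR1 turned to 2.04 and its called fall in TR9 to 0.36, since *Csf2rb* holds most of the counts. No paired analysis was possible because each group had 1 library, and none could be left out. Depth limits *Epor* in the leukemias, at 0 and 1 counts, and *Csf2rb2* in TR9, at 25.5 counts.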
